A study of Mus musculus with 2 samples.

Results

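Tenascins and chondroitin sulfate proteoglycans were followed in 2 coronal brain sections, 1 taken 3 days and 1 taken 28 days after controlled cortical impact (CCI), an open-skull injury in which a piston deforms the cortex of one side. The set held 9 of the 19070 genes counted: the tenascins Tnc and Tnr, the lecticans Vcan (versican), Ncan (neurocan), Bcan (brevican) and Acan (aggrecan), the membrane proteoglycans Cspg5 (neuroglycan C) and Ptprz1, and the link protein Hapln1. These genes were chosen by name and all 9 were found by symbol. Each section came from 1 male C57Bl6 mouse that was 3 months old when it was injured, per the labels and the study's methods. Both mice were injured and no sham section was analysed here, so the reference was the other side of the same injured brain. With 1 section in each group there was no replicate check. All intervals are 95% intervals of counting error only, no p-value was computed, and day, age at sectioning, mouse and section plane cannot be told apart.

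Lecticans are secreted core proteins that carry chondroitin sulfate chains, bind hyaluronan at their amino-terminal end and tenascins at their carboxy-terminal end. Link proteins such as Hapln1 fix lecticans to hyaluronan, and the multimeric tenascins crosslink them. Acan, Hapln1 and Tnr are parts of the perineuronal net, the dense matrix around parvalbumin interneurons and some other neurons. Tnc, Vcan and Ncan are prominent in the developing brain, and chondroitin sulfate proteoglycans of the glial scar are known as inhibitors of axon growth. Ptprz1 is a receptor-type phosphatase of astrocytes and oligodendrocyte precursors, and Cspg5 is a transmembrane proteoglycan.

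On mm10, Tnc spans chr4:63959785-64047015, Vcan chr13:89655312-89742509 and Bcan chr3:87987531-88000230, all on the minus strand. Also on the minus strand, Ncan spans chr8:70093085-70120873. On the plus strand, Tnr spans chr1:159523769-159931729, Acan chr7:79053483-79115099, Cspg5 chr9:110243783-110262576, Hapln1 chr13:89539796-89611652 and Ptprz1 chr6:22875502-23052916. Hapln1 lies 43.7 kb from Vcan on chromosome 13. The 250 bases before the start site are shown for Tnc and Vcan because these members were past 2-fold higher at the lesion on both days. They come from RefSeq's annotation of GRCm38.p6, 5′ to 3′ on the gene's strand, at chr4:64047016-64047265 (minus strand, the outer of the Tnc starts listed) and chr13:89742513-89742762 (minus strand). Capitals mark TATAAA. Of the 9 members 8 matched an entry.
Tnc: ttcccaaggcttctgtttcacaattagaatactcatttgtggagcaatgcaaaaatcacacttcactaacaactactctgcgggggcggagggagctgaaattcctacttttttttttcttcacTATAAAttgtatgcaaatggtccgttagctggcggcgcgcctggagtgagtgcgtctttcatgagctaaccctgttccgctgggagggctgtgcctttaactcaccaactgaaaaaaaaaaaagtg
Vcan: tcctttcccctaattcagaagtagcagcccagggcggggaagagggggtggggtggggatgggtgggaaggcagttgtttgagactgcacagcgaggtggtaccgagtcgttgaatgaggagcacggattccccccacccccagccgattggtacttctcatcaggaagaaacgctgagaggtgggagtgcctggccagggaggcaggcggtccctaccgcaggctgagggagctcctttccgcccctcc
Both strands were searched for TATAAA, the AP-1 motif TGANTCA and the STAT motif TTCNNNGAA. The Tnc window held 1 TATAAA, which 12.4% of 32851 promoter windows of this length hold. AP-1 (6.75% of windows) and STAT (7.02%) motifs had 0 matches in either window, and the Vcan window had 0 matches to TATAAA.

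Counts were unique molecular identifiers (UMIs) of probes per 16 µm bin. The 3 days section held 120615873 UMIs in 121967 bins and the 28 days section 82422389 UMIs in 105589 bins, with medians of 836 and 596 UMIs per bin. Levels are given as CPM, a gene's UMIs scaled to the total of the area. They depend on the probes of each gene and were compared between places, not between genes. The injured side lay below array column 130 at 3 days and below column 240 at 28 days. Genes of activated phagocytes (Cd68, Lyz2, Ctsz, Lgals3, Cd52 and Laptm5) outlined a lesion zone there, of 2.18 mm2 (8506 bins) at 3 days and 3.47 mm2 (13559 bins) at 28 days, and its reflection across the midline was the mirror area. The 3 days zone reached the edge of the capture area, with 121 of its bins at that edge against 0 at 28 days. The captured injured side was 2.08 mm wide at 3 days and 3.84 mm at 28 days. Zone area and shares at 3 days are thus those of the captured part. Zone bins held 607 UMIs on average against 937 in the mirror area at 3 days, and 528 against 642 at 28 days.

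Zone and mirror area did not hold the same tissue. Tiles high in genes of the hippocampal pyramidal layer made up 0% of the zone and 16.8% of the mirror area at 3 days, and tiles high in white matter genes 50.3% and 15.4%. At 28 days tiles high in thalamic genes made up 21.0% and 37.1%, and tiles high in ependymal genes 15.97% and 1.92%. The band within 250 µm outside the 3 days zone was unlike its mirrored band too. Tiles high in choroid plexus genes made up 19.5% and 0.984% of these bands, and tiles high in thalamic genes 0.402% and 26.4%. Tiles high in genes of upper cortical layers made up 3.55% and 16.5%. Inside the 3 days zone itself, tiles high in striatal genes made up 14.8% and tiles high in hypothalamic genes 4.21%. The mirror area had 0% of either. The class of a zone tile rests on marker levels in injured tissue. It need not be the tissue that holds this class on the opposite side. The part of these differences in the ratios was not tested.

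Tnc was higher in the zone as a whole on both days, and by far more at 3 days. The zone then held 1593 Tnc UMIs and the mirror area 237, levels of 309 and 29.8 CPM and a log2 ratio of 3.37 (3.17 to 3.58), or 10.4-fold. The size of this ratio depended on the areas compared. It was 5.42 against opposite side tiles high in cortical layer genes, 4.63 against the whole opposite side, 4.07 without hippocampal tiles in the mirror area and 2.70 with a zone drawn at the 95th percentile, the lowest of 19 other settings. Of all Tnc UMIs in that section 54.4% lay in the zone, which held 4.29% of the UMIs of all genes. The 28 days zone held 153 Tnc UMIs and its mirror area 72, 21.4 and 9.01 CPM, for a ratio of 1.24 (0.83 to 1.67) on the log2 scale. Its share of the section's Tnc UMIs was 18.8%, beside 8.70% for all genes. The level in the zone was 0.0693 times as high in the 28 days section as in the 3 days section, and that in the mirror area 0.303 times. The 28 days ratio was 0.066 without bins within 100 µm of a free tissue edge and -0.18 over only those bins whose mirrored place held tissue, but 3.28 against cortical tiles. Of the 28 days zone's Tnc UMIs 125 lay in tiles high in ependymal genes. Against the same class of the opposite side, Tnc was 2.63 (1.64 to 4.07) there, -1.85 (-3.28 to -0.86) on 7 UMIs in zone tiles high in thalamic genes and -0.77 (-2.02 to 0.27) on 10 UMIs in those high in white matter genes.

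Vcan, a lectican also made by oligodendrocyte precursors and fibroblasts, was the other member past 2-fold higher. Its 3 days counts were 185 UMIs in the zone and 62 in the mirror area, 35.8 and 7.79 CPM, with a log2 ratio of 2.19 (1.78 to 2.64), which ranged between 1.57 and 2.81 over 19 other settings. Against the same class of the opposite side, Vcan had 1.41 (0.93 to 1.90) on 93 UMIs in zone tiles high in white matter genes. Those high in striatal genes had 1.98 (1.30 to 2.66) on 36 UMIs and those of choroid plexus 2.92 (1.55 to 4.32) on 11. In cortical and hypothalamic classes it had 5 UMIs or fewer, with intervals that include 0. Its 28 days counts were 200 and 107, 27.9 and 13.4 CPM, with a ratio of 1.06 (0.72 to 1.41). The 28 days value lay close to 2-fold and ranged between 0.78 and 2.11 over the same settings.

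**Figure D1:**
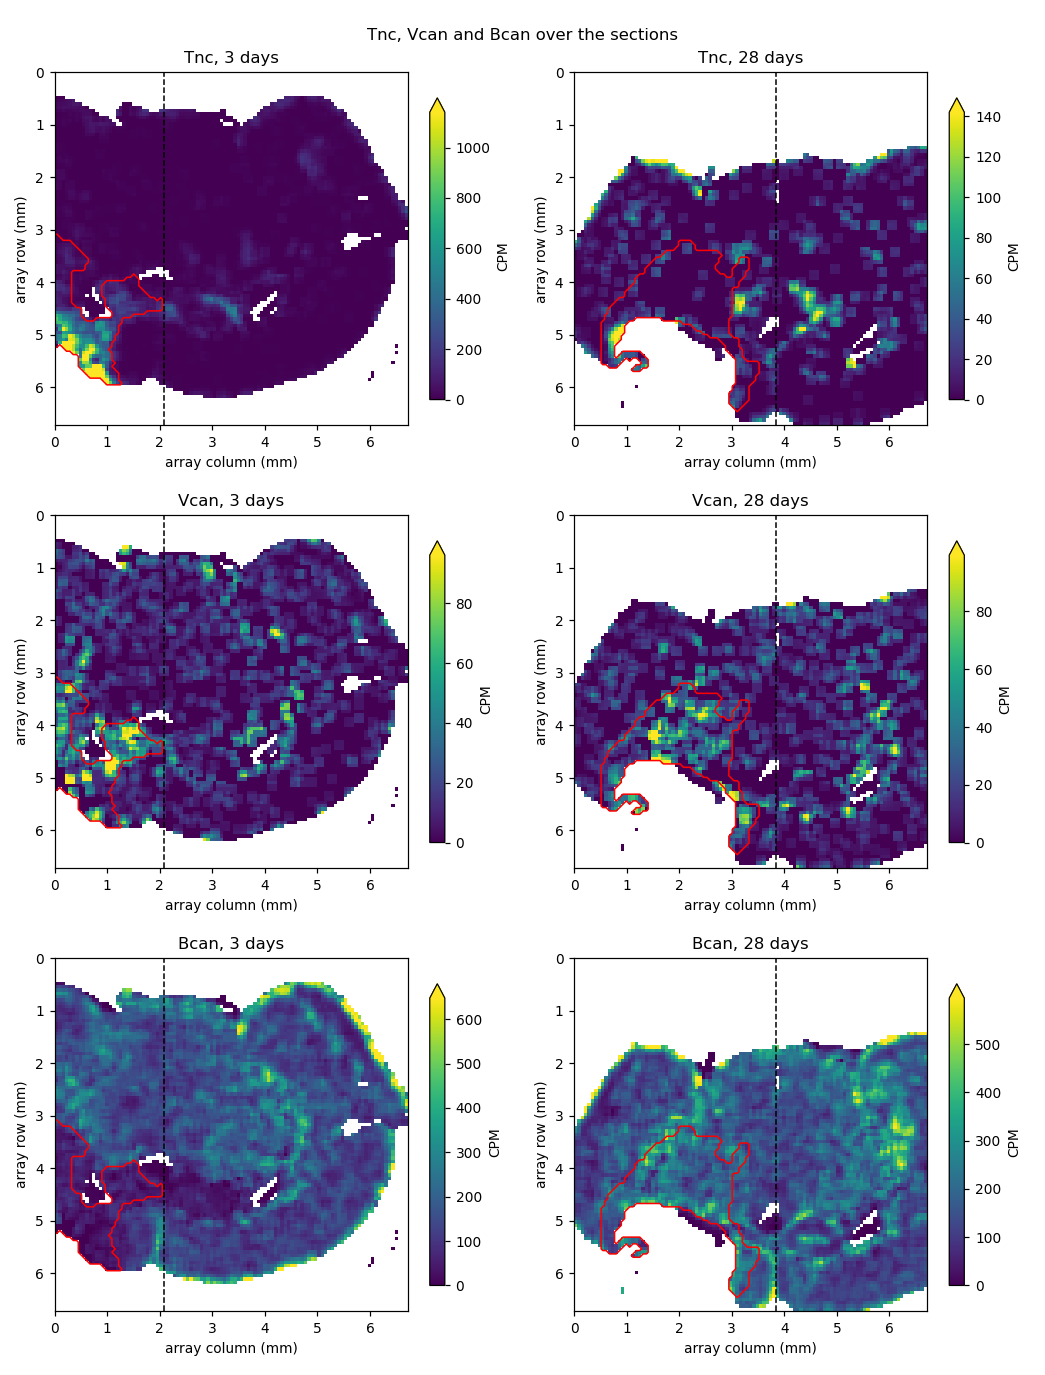
Level of Tnc, Vcan and Bcan (CPM, colour) over the 3 days and 28 days sections, in 64 µm tiles averaged over 3 by 3 tiles, with position in mm on both axes. The dashed line is the midline (injured side on the left), the red outline is the lesion zone, and each colour scale is capped for its panel. At 3 days Tnc is brightest inside the outline and Bcan is dark there.

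Acan, the main lectican of perineuronal nets, was the member past 2-fold lower on both days, on few counts. It had 8 UMIs in the zone and 33 in the mirror area at 3 days, 1.55 and 4.15 CPM, a ratio of -1.35 (-2.75 to -0.28). The 28 days counts were 19 and 65, 2.65 and 8.14 CPM, a ratio of -1.59 (-2.44 to -0.86). With hippocampal tiles left out of the mirror area the 28 days ratio was -0.93, against opposite side tiles high in cortical layer genes it was -0.59, and with a pseudocount of 5 UMIs the 3 days ratio was -0.92, all within 2-fold.

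Bcan, a lectican of the nervous system, was lower at 3 days and slightly higher at 28 days. It had 258 UMIs in the 3 days zone and 768 in the mirror area, 50.0 and 96.5 CPM, a ratio of -0.95 (-1.16 to -0.74). Against the whole opposite side this ratio was -1.56. Against the same class of that side, zone tiles high in white matter genes had -1.97 (-2.26 to -1.70) and those high in striatal genes -1.85 (-2.33 to -1.43). Those of upper cortical layers had -1.75 (-2.88 to -0.93) on 10 UMIs and those of choroid plexus -0.11 (-1.07 to 0.65) on 14. The 28 days zone and mirror area had 1456 and 1472 UMIs, 203 and 184 CPM, and a ratio of 0.14 (0.037 to 0.25). The zone level was 4.07 times as high in the 28 days section as in the 3 days section, and the mirror level 1.91 times.

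Ptprz1 was higher in the zone within 2-fold, at 279.9 against 157 CPM on day 3 (0.84, 0.72 to 0.95) and 298 against 199.9 CPM on day 28 (0.58, 0.48 to 0.67). Against the same class of the opposite side its direction in the 3 days zone differed between classes. It was lower in zone tiles high in genes of upper cortical layers, -0.57 (-1.20 to -0.049) on 27 UMIs, of layer 5, -1.74 (-3.50 to -0.65) on 5, and of the hypothalamus, -1.78 (-2.63 to -1.12) on 16. In those of layer 6 it had -0.42 (-0.92 to 0.013). It was higher in those of white matter, 0.42 (0.28 to 0.55), striatum, 0.61 (0.41 to 0.80), ependyma, 0.43 (0.18 to 0.67), and choroid plexus, 1.62 (1.05 to 2.15). Tnr, a tenascin of oligodendrocytes and some neurons, had log2 ratios of -0.14 (-0.27 to -0.00038) and 0.53 (0.39 to 0.67) on these days. Cspg5 had 0.25 (0.14 to 0.35) and 0.11 (0.019 to 0.20), but -0.45 and -0.57 against opposite side tiles high in cortical genes. These members thus differed from the mirror area by less than 2-fold. Ncan had 86.6 against 84.7 CPM at 3 days, 0.032 (-0.14 to 0.21), and 44.2 against 55.2 CPM at 28 days, -0.32 (-0.54 to -0.11). Against the same class of the opposite side, Ncan in the 3 days zone had 0.93 (0.62 to 1.24) in tiles high in white matter genes. It had -0.11 (-0.84 to 0.48) in those of upper cortical layers and -0.25 (-1.55 to 0.65) in those of layer 5. Hapln1 had 42 against 57 UMIs at 3 days, 0.19 (-0.43 to 0.78), and 71 against 119 at 28 days, -0.58 (-1.03 to -0.15).

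Among members with at least 20 UMIs over both areas, 2 of 9 were past 2-fold higher and 1 lower at 3 days, and 2 and 1 at 28 days. At 3 days 17.5% of all genes were past 2-fold higher and 8.59% lower, and at 28 days 16.5% and 8.16%. The members' median log2 ratio was 0.19 and 0.14, beside 0.14 and -0.00036 over all genes. The counts moved with the setting. Over 19 other settings the 3 days count lower was 2 in 12, where Bcan joined Acan, and 0 in 1. The 28 days count higher was 1 in 4 and 0 in 2, and the 28 days count lower was 0 in 3. With 9 members and these moves, no difference between the members' shares and those of all genes was read from them.

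**Figure D2:**
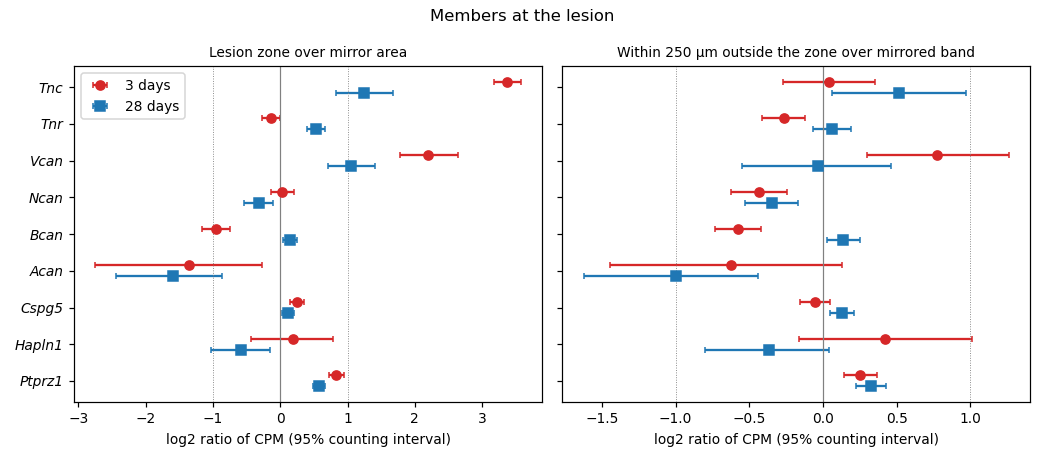
Log2 ratio of CPM with its 95% counting interval for the 9 members at 3 and 28 days, for the lesion zone over its mirror area and for the band within 250 µm outside it over the mirrored band. Dotted lines mark 2-fold. In the zone Tnc and Vcan lie past the upper line and Acan past the lower line on both days, and in the band no member lies past either.

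Cell type markers differed between the same areas, and their part in these results was not tested. In the 3 days zone the summed level of 6 astrocyte genes was 4.07 times that of the mirror area, that of 5 oligodendrocyte precursor genes 2.57 times and that of 5 fibroblast and meningeal genes 4.41 times. Of these genes 4 of 6, 5 of 5 and 3 of 5 were past 2-fold higher. The neuron list was at 0.265 times and the parvalbumin interneuron list at 0.236 times the mirror level, each with all of its genes (4 and 5) past 2-fold lower. The monocyte-derived macrophage list was at 62.7 times the mirror level, the mural list at 4.59, the endothelium list at 3.19, the oligodendrocyte list at 3.16 and the T cell list, on few UMIs, at 7.24 times. The zone was drawn from the share of phagocyte genes, so a high macrophage list there is no separate finding. In the 28 days zone the astrocyte list was at 9.78, the precursor list at 1.25, the fibroblast and meningeal list at 7.72 and the parvalbumin interneuron list at 0.302 times the mirror level. The macrophage list was at 41.8, the neuron list at 0.374, the mural list at 1.55, the endothelium list at 1.41, the oligodendrocyte list at 1.05 and the T cell list at 1.77 times. Fewer cells of a type and less RNA per cell cannot be told apart in such bins.

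The Tnc level dropped steeply at the border of the 3 days zone. It was 412 CPM at 100 to 200 µm inside and 230.0 CPM in the last 100 µm. Outside it was 51.1, 15.8 and 6.08 CPM in the first 3 steps of 100 µm, where the mirrored steps had 31.2, 23.1 and 15.2 CPM. The log2 ratio went from 0.71 (0.32 to 1.10) in the first of these steps to -1.30 (-2.30 to -0.42) in the last. Vcan had 18.8 CPM in the first 100 µm outside and 9.62 CPM in the mirrored step. Ptprz1 had ratios of 0.74 (0.57 to 0.92) in that step and -0.085 (-0.27 to 0.10) in the next.

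Bcan had the opposite course at 3 days, and past the border its level was still below that of the mirrored steps. It was 54.8 CPM in the last 100 µm inside and 84.8, 85.7 and 108 CPM in the steps outside, against 110.5, 143 and 161 CPM in the mirrored steps. Its ratio was -0.74 (-0.99 to -0.50) at 100 to 200 µm and -0.10 (-0.35 to 0.15) at 400 to 500 µm. In choroid plexus tiles Bcan was at 38.8 CPM on the injured side outside the zone and 112 CPM on the opposite side. Opposite thalamic tiles had 167 CPM. The compared bands held these classes in unlike shares, and the part of this in the ratios was not tested.

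In the whole band within 250 µm of the zone 0 of 9 members were past 2-fold in either direction on either day. There, 13.4% of all genes were past 2-fold higher and 4% lower at 3 days, and 6.94% and 0.665% at 28 days. Acan at 28 days came closest, with 33 UMIs and 4.88 against 9.85 CPM, -0.999 (-1.62 to -0.44). At 250 to 500 µm on day 3, Acan was past 2-fold higher (37 against 15 UMIs, 1.31, 0.44 to 2.31) and Tnc past 2-fold lower (22 against 48 UMIs, -1.07, -1.89 to -0.33), where 5.53% of all genes were past 2-fold higher and 1.36% lower. On day 28 no member was, beside 2.31% and 0.726% of genes. At 3 days tiles high in white matter genes made up 29.0% of this band and 8.22% of the mirrored band, and thalamic tiles 16.9% and 43.0%. On the opposite side Acan was then at 11.5 CPM in white matter and 1.91 CPM in thalamic tiles, and Tnc at 32.1 and 13.8 CPM. The part of this mismatch in the 3 days ratios was not tested.

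From 500 to 1000 µm and from 1000 to 2000 µm no member was past 2-fold on either day. The shares of all genes past 2-fold higher and lower in the first of these bands were 3.17% and 0.657% on day 3 and 1.5% and 1.44% on day 28. In the second they were 0.872% and 0.676%, and 0.774% and 1.29%. Over whole sides as captured, Tnc was the 1 member past 2-fold at 3 days, with 50.5 against 12.4 CPM and 2.02 (1.91 to 2.13). There, 10.5% of all genes were past 2-fold higher and 2.12% lower. The injured side then held 39116 bins, of which 8506 were zone bins, and the opposite side 80501. Tiles high in white matter genes made up 29.3% of the injured side and 12.2% of the opposite side. The part of these mismatches in the 3 days whole side ratios was not tested. At 28 days Tnc had 0.68 (0.48 to 0.88), and no member was past 2-fold, beside 6.39% and 0.582% of genes.

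Deep in the zone, over 250 µm from its border, Tnc stood at 337 CPM on 298 UMIs at 3 days but at 1.25 CPM on 2 UMIs in 4110 bins at 28 days. Vcan stood at 36.2 and 32.5 CPM in these places. Cspg5 at 28 days had 308 CPM within 100 µm of the border and 138 CPM over 250 µm inside, and Ncan 56.3 and 26.3 CPM.

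**Figure D3:**
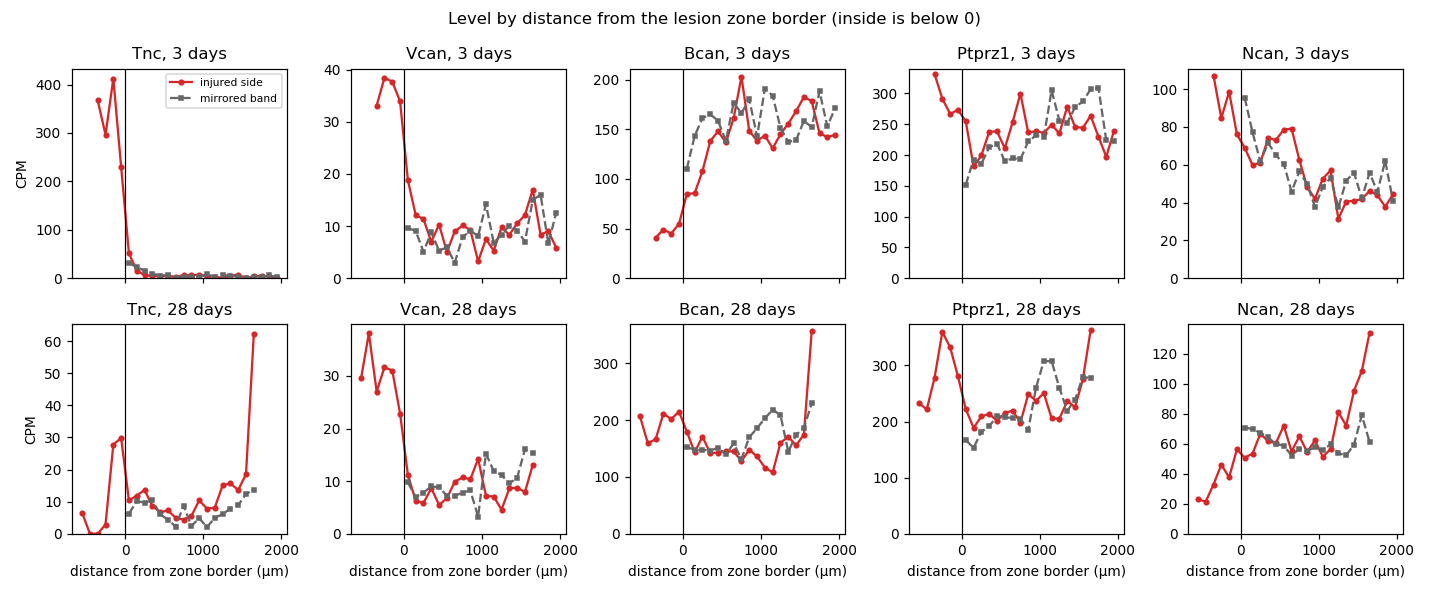
Level (CPM) of Tnc, Vcan, Bcan, Ptprz1 and Ncan in 100 µm steps by distance from the border of the lesion zone at 3 and 28 days, with distances inside the zone below 0. Red is the injured side and grey the mirrored step. At 3 days Tnc goes from 230.0 to 51.1 CPM across the border and Bcan from 54.8 to 84.8 CPM.

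Tnc was uneven within the 3 days zone. Over 536 tiles of 64 µm the Tnc level had a median of 136 and a highest value of 7083 CPM, and 34.9% of tiles had 0 Tnc UMIs. The 10% of tiles with the most Tnc held 54.8% of its 1568 UMIs, and for Ptprz1, with 1436 UMIs, that share was 32.8%. In the 28 days zone 91.7% of 867 tiles had 0 Tnc UMIs.

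Tnc was higher near free tissue edges, those that border a gap of at least 100 bins, in the lesion and away from it. Within 100 µm of such an edge the 3 days zone had 651 CPM and deeper tissue 257 CPM, 1.34 (1.18 to 1.499). In the 28 days zone the levels were 69.8 CPM on 99 UMIs and 9.41 CPM on 54 UMIs, 2.88 (2.40 to 3.40). The opposite side had lower levels, 37.2 and 21.2 CPM at the edge, with ratios of 1.78 (1.53 to 2.01) and 1.59 (1.11 to 2.02). Vcan differed less between edge and depth in the zone, by 0.60 (0.00091 to 1.13) and 0.59 (0.10 to 1.04). On the opposite side Bcan had 1.13 (1.05 to 1.20) at 3 days but 0.24 (0.094 to 0.38) at 28 days, and Hapln1 1.52 (1.23 to 1.78) and -0.16 (-0.80 to 0.37).

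**Figure D4:**
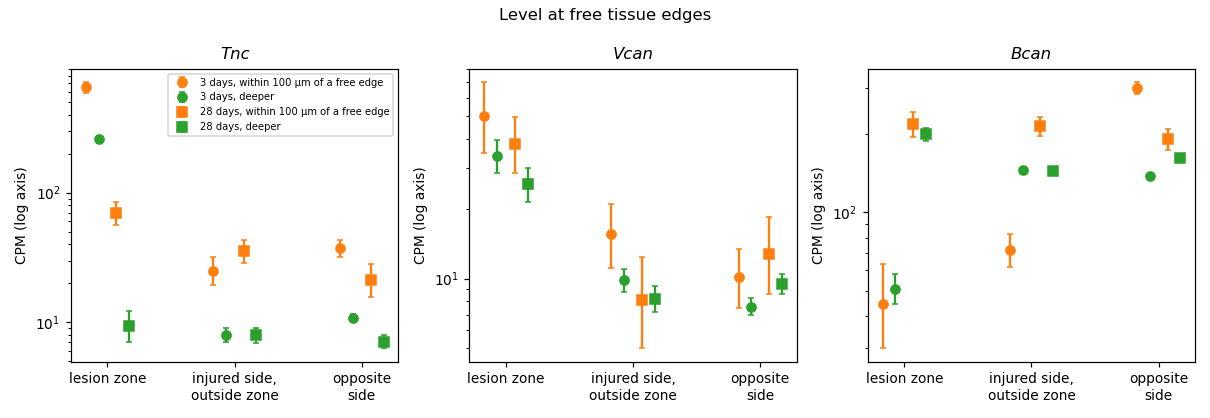
Level (CPM, log axis, with 95% Poisson counting interval) of Tnc, Vcan and Bcan within 100 µm of a free tissue edge (orange) and deeper (green) in the lesion zone, the injured side outside it and the opposite side, at 3 days (circles) and 28 days (squares). For Tnc the edge lies above the deeper value in all 3 areas on both days, and Bcan on the injured side outside the zone at 3 days lies the other way (71.5 against 145 CPM).

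Bins with a Tnc UMI held more Col1a1 and Vim, and more of the summed endothelium and mural lists, than other bins at 3 days. This held over the zone with its rim and in the zone alone. Single genes of the endothelium and mural lists were not compared between such bins. Bins of the zone and the 250 µm around it were thinned to 300 UMIs, which left out 2550 shallower bins at 3 days, and 520 bins then had a Tnc UMI and 11407 had none. Col1a1, a fibrillar collagen of fibroblasts, was at 579 CPM in the first and 64.9 CPM in the second, 3.16 (2.79 to 3.52). The fibroblast and meningeal list had 1.68 (1.39 to 1.94), but Col1a1 gave 90 of its 126 UMIs in bins with Tnc. The other members, Dcn with 0.34 (-0.28 to 0.85) on 29 UMIs, and Lum, Ogn and Slc6a13 on 5, 1 and 1, had intervals that include 0. The monocyte-derived macrophage list had 1.40 (0.91 to 1.84), the endothelium list 0.86 (0.53 to 1.16) and the mural list 1.09 (0.87 to 1.30). Vim, an intermediate filament of reactive astrocytes and of mesenchymal cells, had 1.02 (0.93 to 1.11). The astrocyte list had 0.51 (0.44 to 0.58), with Vim giving 1143 of its 1918 UMIs in bins with Tnc. Gfap, the astrocyte filament, had -0.047 (-0.18 to 0.079), Aqp4 0.11 (-0.23 to 0.41) and the neuron list -0.91 (-1.14 to -0.69). The zone and its rim differed in Tnc, at 309 and 26.2 CPM, and in these lists. The macrophage list was at 197 CPM in the zone and 16.8 CPM in the rim, the mural list at 785 and 398 CPM and the neuron list at 1545 and 3078 CPM. Over zone bins alone, an alternative chosen after seeing the data and thinned in a separate random draw, 469 bins had a Tnc UMI and 6373 had none. Col1a1 then had 2.92 (2.50 to 3.32), Dcn 1.43 (0.87 to 1.93) on 37 UMIs, Vim 0.56 (0.47 to 0.65), the endothelium list 0.87 (0.54 to 1.17) and the mural list 0.67 (0.43 to 0.89). The macrophage list had 0.47 (-0.085 to 0.95) and the neuron list -0.17 (-0.41 to 0.054) there, both with intervals that include 0. Gfap had -0.21 (-0.35 to -0.074) and the oligodendrocyte list -0.67 (-0.77 to -0.56), both lower in bins with Tnc. In the 28 days section, with 58 such bins, Vim had 1.14 (0.66 to 1.56) and Gfap -0.078 (-0.49 to 0.28). Over its zone bins alone, 24 of which had a Tnc UMI, Vim had 1.47 (0.93 to 1.92) and Gfap 0.14 (-0.35 to 0.55). A bin can hold parts of several cells, so these are places and not cells of origin.

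The opposite side gave the members' anatomy, with tiles classed by markers of layers and nuclei. At 3 days Tnc was at 45.7 CPM in the dentate granule layer, 39.9 CPM in the hippocampal pyramidal layer and 32.1 CPM in white matter, but 3.39 CPM in upper cortical layers. Against the rest of the side the dentate value was 1.99 (1.66 to 2.29) and the upper cortical value -2.11 (-2.53 to -1.74). At 28 days the hippocampal levels were 9.86 and 3.77 CPM, on 12 and 8 UMIs, while thalamic relay nuclei had 18.9 CPM, 1.74 (1.42 to 2.05), beside 0.18 (-0.087 to 0.42) at 3 days. Some other classes stood on the same side of the rest on both days. Upper cortical layers had -1.77 (-2.61 to -1.11) at 28 days, layer 6 -1.54 (-2.02 to -1.13) and -1.45 (-2.23 to -0.82) and choroid plexus 1.11 (0.45 to 1.66) and 1.42 (0.58 to 2.08). Layer 5 did not, with 0.42 (0.17 to 0.66) and -3.38 (-5.43 to -2.17).

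Bcan was highest in white matter among the classes on both days, at 218 and 259 CPM. Vcan was at 15.9 and 23.6 CPM there and at 4.45 and 5.56 CPM in upper cortical layers. Cspg5 went the other way, with 334 and 451 CPM in upper cortical layers and 221 and 256 CPM in white matter. Ncan was at 121 and 85.8 CPM in the hippocampal pyramidal layer and 43.1 and 44.7 CPM in white matter. Tnr was highest in the habenula, at 172 and 219.7 CPM, with the dentate granule layer next at 168 and 189 CPM, and Ptprz1 in ependymal tiles, at 308 and 323 CPM. The link protein Hapln1 was at 1.55 and 2.90 CPM in thalamic relay nuclei, against 15.3 and 21.5 CPM in upper cortical layers. Acan was at 9.33 and 33.5 CPM in the hippocampal pyramidal layer (36 and 71 UMIs), with ratios to the rest of 1.26 (0.70 to 1.74) and 2.94 (2.52 to 3.34). In white matter it was at 11.5 and 10.9 CPM (45 and 30 UMIs), 1.60 (1.10 to 2.05) and 1.04 (0.41 to 1.57), the highest class at 3 days.

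**Figure D5:**
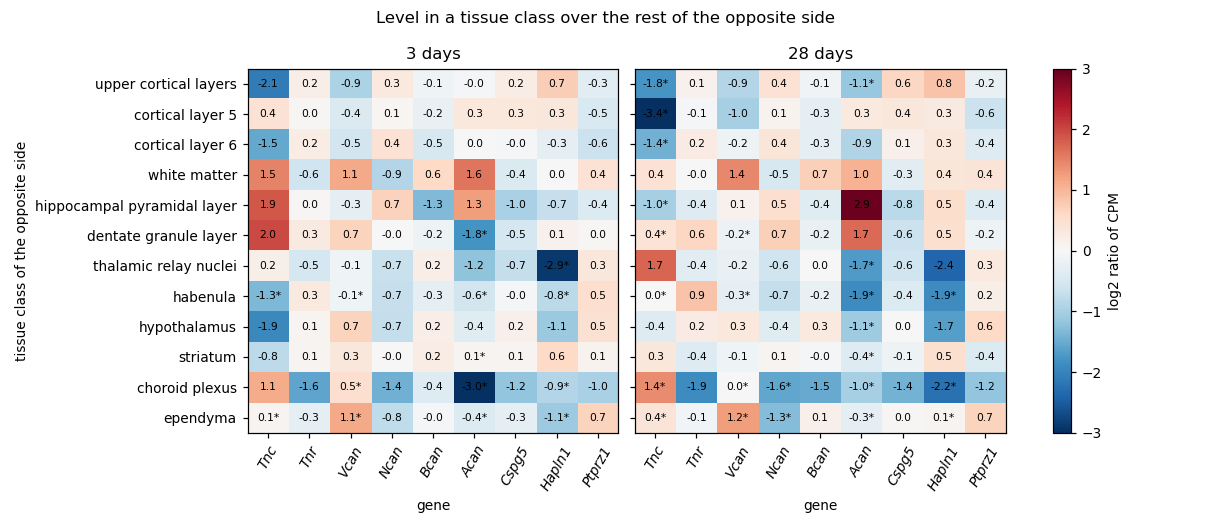
Log2 ratio of each member's CPM in a tissue class over the rest of the opposite side, at 3 and 28 days, with an asterisk where the class held under 20 UMIs. Colour runs from -3 (blue) to 3 (red) and values beyond are drawn at the limit. Hapln1 is blue in thalamic relay nuclei and Acan red in the hippocampal pyramidal layer on both days.

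Acan UMIs lay in bins rich in parvalbumin interneuron transcripts. On the opposite side, thinned to 300 UMIs, 88 bins had an Acan UMI at 3 days, in which Pvalb was at 1634 CPM against 256 CPM in the others, 2.69 (2.20 to 3.10). Gad1, an enzyme of GABA synthesis, had 1.99 (1.10 to 2.66). The 28 days section had 61 such bins, with 2.52 (2.00 to 2.96) for Pvalb and 1.14 (-0.28 to 2.09) for Gad1. The neuron list had 0.29 (0.049 to 0.52) and 0.17 (-0.14 to 0.45).

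On the injured side outside the zone, against the opposite side outside the mirror area, 0 of 9 members were past 2-fold on either day. There, 7.32% of all genes were past 2-fold higher and 2.26% lower at 3 days, and 1.36% and 0.602% at 28 days. The class values that follow are against the same class of the whole opposite side, mirror area included. Within cortical classes Tnc was past 2-fold higher at 28 days. It had 8.17 CPM (47 UMIs) in upper layers against 2.49 CPM (17 UMIs) opposite, 1.69 (0.89 to 2.61). Layer 5 had 25 against 4 UMIs, 3.03 (1.63 to 5.15), and layer 6 25 against 19 UMIs, 1.61 (0.70 to 2.56). These classes were singled out after their values were seen, and their counts are low. At 3 days Tnc was lower in the dentate granule layer, with 4.003 against 45.7 CPM, -3.38 (-5.17 to -2.24), in thalamic relay nuclei, -2.17 (-3.002 to -1.50), and in cortical layer 5, -1.13 (-1.98 to -0.44). It was past 2-fold higher in cortical layer 6, 1.13 (0.35 to 1.85) on 25 UMIs, and the hypothalamus, 1.17 (0.57 to 1.81) on 62. So it was in tiles high in striatal genes, 1.49 (0.18 to 2.54) on 9 UMIs. All 464 of these striatal bins lay within 250 µm of the zone, where the mirrored band held 0. At 3 days the direction thus differed between classes. Vcan was higher in upper cortical layers at 3 days, 1.63 (0.86 to 2.29).

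Of 34 related matrix genes (other link proteins and tenascins, hyaluronan synthases, receptors, chain-building enzymes and proteases) 33 were counted. In the zone 12 of 30 with enough UMIs were past 2-fold higher and 3 lower at 3 days, and 9 and 2 of 31 at 28 days, with medians of 0.67 and 0.49. Beside this stand 17.5% of all genes higher and 8.59% lower in the 3 days section, 16.5% and 8.16% in the 28 days section, and medians over all genes of 0.14 and -0.00036. This list was chosen with earlier results of these data known, so no difference from all genes was read from its counts or medians. Has2, which makes the hyaluronan that lecticans bind, had 144 against 23 UMIs at 3 days, 3.24 (2.63 to 3.97), and 50 against 5 at 28 days, 3.36 (2.16 to 5.16). Cd44, a hyaluronan receptor, had 1.84 (1.65 to 2.04) and 4.77 (4.28 to 5.36). Of the proteases that cut lecticans, Adamts1 had 1.68 (1.44 to 1.92) and 1.14 (0.84 to 1.46), and Adamts4 1.44 (1.22 to 1.67) and 0.04 (-0.15 to 0.23). Adamts5 had 1.64 (0.84 to 2.53) and 1.71 (0.84 to 2.73), Adamts9 2.02 (1.48 to 2.61) and 0.56 (-0.055 to 1.19), and Adamts15 -1.39 (-2.61 to -0.43) and -0.83 (-1.55 to -0.16). Adamts15 thus lay on the other side of 0 from the rest. Hyal1, a hyaluronidase, had 0.96 (0.42 to 1.52) and 1.52 (0.97 to 2.12), and the tenascin Tnxb 0.46 (-0.26 to 1.18) and 1.77 (0.94 to 2.75).

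Cspg4 (NG2), a proteoglycan of oligodendrocyte precursors and pericytes, had 1.83 (1.36 to 2.33) and 1.21 (0.84 to 1.61). Of the receptors, Ptprf had 1.30 (1.19 to 1.41) and 1.16 (1.04 to 1.27), and Rtn4r, a neuronal receptor of growth inhibitors, -2.59 (-2.86 to -2.34) and -0.89 (-1.07 to -0.70). The chain-building enzymes did not share a direction: Chst3 had 1.91 (1.21 to 2.70) and 0.78 (0.21 to 1.38), Dse 1.17 (0.70 to 1.66) and 1.51 (1.03 to 2.02), and Chsy3 -0.21 (-0.76 to 0.31) and -1.41 (-2.05 to -0.84).

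Lecticans and the link proteins beside them in the genome had different ratios at 3 days. Hapln2, a link protein of nodes of Ranvier, had 1.68 (1.53 to 1.84) and 0.11 (-0.026 to 0.25), where its neighbour Bcan had -0.95 and 0.14. Hapln4, a link protein of inhibitory synapses, had -2.28 (-2.57 to -2.01) and -1.81 (-2.02 to -1.60), where its neighbour Ncan had 0.032 and -0.32. Hapln3, beside Acan, had 1.67 (0.42 to 3.13) on 17 and 8 UMIs at 3 days, where Acan had -1.35, and 0.67 (-0.65 to 2.10) at 28 days, where Acan had -1.59.

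Across opposite side tiles of 8 by 8 bins (1273 at 3 days, 836 at 28 days) Aldoc, a glycolytic enzyme of astrocytes, was the gene of 5662 most like Bcan, with Pearson's r of 0.67 and 0.58. Sparcl1 and Ndrg2 came next. Aldoc was also the most like Ptprz1, with 0.57 and 0.60, before Gpr37l1 and Ndrg2. Cspg5 was most like Tspan7 (0.55 and 0.52), before Slc1a2 and Hpcal4. Tnr was most like Map2 (0.43 and 0.33), before Cacnb3 and Nrxn2. Hapln1 was most like Sipa1l1 (0.325 and 0.325), before Ddn and Phactr1, values about as weak as those of Tnr. Vcan was most like Sox10 (0.21 and 0.22), before S100a16 and Qki, which is weaker still. Hapln1 and Vcan had sparse counts, and no finding was read from the values of Tnr, Hapln1 or Vcan. The tiles share a library and adjoin each other, so these values are descriptions.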

How the data were processed

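Expression was measured in place with Visium HD and a mouse whole-transcriptome probe set on fixed coronal sections 10 µm thick. The deposited values are raw UMI counts per gene and bin, which the authors made with Space Ranger 4.0.1 and did not normalize, and the processing notes name mm10. The members and all lists were chosen with earlier results of these data known.

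Bins needed at least 100 UMIs, which removed 1.93% at 3 days and 2.15% at 28 days. They were grouped 4 by 4 into 64 µm tiles. Injured side tiles joined the lesion zone where the UMI share of 6 phagocyte genes, smoothed over 5 by 5 tiles, exceeded its 99th percentile across the opposite hemisphere, in patches of at least 25 tiles. Of zone bins 92.3% and 86.6% had tissue at the mirrored place.

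UMIs were summed per area and compared as log2 ratios of CPM with a pseudocount of 0.5 UMI and exact conditional binomial 95% intervals. Genes with at least 20 UMIs over both areas were counted past 2-fold. Opposite side tiles took the class whose marker list had the highest mean z score, if above 0.5. Named genes were the members, the related genes past 2-fold in either section, and for each member the 3 genes most like it by the smaller r of the sections, on log2(CPM + 20) among genes with at least 2000 UMIs on both opposite sides, of which some are not reported here. A free edge borders a gap in the tissue of at least 100 bins, and the border of the capture area was not counted as one. The free-edge and tile summaries were chosen after the data were seen. The method was run on simulated Poisson counts. These held no tissue mismatch and no spread between mice, so they checked the calculation alone. Python 3.11.15, numpy 2.4.6, pandas 2.3.3 and scipy 1.17.1 were used, with TMM factors from edgeR 4.0.16 in 1 alternative. The alternatives changed the midline, reference area, zone threshold, smoothing, minimum, pseudocount, scaling and thinning.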

Additional observations from a re-analysis of the deposited data

Results flagged for a closer look

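The zone ratio lay on opposite sides of 0 in the 2 sections for 4 members. For Bcan it was -0.95 and 0.14, a difference (28 days minus 3 days) of 1.09 on the log2 scale. The difference was 0.67 for Tnr, -0.77 for Hapln1 and -0.35 for Ncan. With 1 section in each group these differences were not tested, and the 3 days intervals of Hapln1 and Ncan include 0. The 28 days Bcan ratio was -0.14 with UMIs per bin, and the 3 days Tnr ratio was 0.057 without hippocampal tiles in the mirror area. The 3 days sign held in 11 of 19 other settings for Hapln1, 9 for Ncan, 16 for Tnr and 19 for Bcan, and the 28 days sign in 19, 19, 19 and 18. The opposite signs thus did not hold in every setting for any of the 4 members. For Bcan the only exception was UMIs per bin, a scaling that moved the median of all genes by -0.28 at 28 days.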

How the results depend on the processing

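No paired analysis was possible because each group had 1 section. Over 19 alternatives the 3 days ratio lay between 2.70 and 5.42 for Tnc, 1.57 and 2.81 for Vcan, 0.21 and 0.92 for Ptprz1, -1.58 and -0.65 for Bcan and -2.72 and -0.92 for Acan. The 3 days sign held in 11 of 19 for Hapln1, 9 for Ncan, 13 for Cspg5 and 16 for Tnr, and the 28 days sign in 14 for Cspg5 and 18 for Bcan and for Tnc. The 28 days Bcan sign changed only with UMIs per bin, a scaling that lowered all genes alike. The 28 days Tnc ratio lay between -0.18 and 3.28, the lowest being that over only bins whose mirrored place held tissue. TMM moved the median of all genes in the zone by -0.17 at 3 days, and UMIs per bin moved it by -0.63 at 3 days and -0.28 at 28 days.

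The members' zone median was -0.44 at 3 days with UMIs per bin. The 28 days median was 0.27 with the midline moved 20 bins towards the injured side, 0.30 with a tilt of -5 degrees, -0.079 over only bins whose mirrored place held tissue and -0.14 with UMIs per bin. Within 250 µm of the zone the 3 days median was -0.17 with the midline moved towards the opposite side, 0.072 with a tilt of 5 degrees, -0.24 against the whole opposite side, -0.50 against cortical tiles, 0.24 with the strictest zone threshold, 0.13 with 3 by 3 tiles, -0.17 with TMM and 0.048 with UMIs per bin. The 28 days value there was 0.20 with 3 by 3 tiles and -0.21 with UMIs per bin.

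Past 2-fold lower at 3 days were 2 members, not 1, with the midline moved towards the opposite side or tilted either way, against the whole opposite side or cortical tiles, over only bins whose mirrored place held tissue, with the strictest threshold, 3 by 3 tiles, no minimum, TMM or UMIs per bin, and without hippocampal tiles, and 0 with a pseudocount of 5 UMIs. Past 2-fold higher at 28 days was 1 member, not 2, with the midline moved either way, over only bins whose mirrored place held tissue and with the threshold at the 95th percentile, and 0 with UMIs per bin or without free-edge bins. Past 2-fold lower at 28 days were 0 with the midline moved towards the injured side, against cortical tiles or without hippocampal tiles. Leaving out hippocampal tiles, free-edge bins or array-edge columns was chosen after seeing the data.

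Without thinning, bins with an Acan UMI had the other sign for the T cell (-1.39 and -0.55) and macrophage (-0.21 and -0.89) lists. At 3 days so had the precursor list (-0.20). In bins with a Tnc UMI the precursor list had the other sign at 28 days (0.50). Over zone bins alone it was 0.25 on 1 UMI, yet its level was 139 CPM in bins with Tnc and 176 CPM in the others. The sign of that 0.25 thus rests on the pseudocount of 0.5 UMI. The cause of the shifts without thinning was not tested. Depth limits Acan most, with 479 and 390 UMIs in the whole sections.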
